A study of Mus musculus with 40 samples.

Results

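RNA recovered from polysomes was compared with unfractionated total RNA in mouse zygotes made in vitro (IMZ), that is, oocytes matured and fertilized in vitro and collected at the pronuclear stage. The comparison uses 8 of the 40 libraries of the series, 4 polysomal and 4 total, with replicates numbered 1 to 4 in the labels. Genes were taken where both the polysomal and the total RNA table of the zygotes list them, which left 6324 of the 6336 genes in the polysomal table and of the 10824 genes in the total RNA table. Zygotes matured and fertilized in vivo (IVZ, 4 libraries in each fraction) stand in the same tables and serve as the closest other group, and oocytes matured in vivo (IVO) or in vitro as cumulus-oocyte complexes (COC) are given beside them as a description. The labels name the mouse as the species and ovarian germ cells as the source, and give no strain, age or number of pooled cells, and do not say whether each replicate was a separate animal or collection. The p-values below therefore measure only the spread between these libraries, which may be partly technical.

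The fertilized egg starts life with messenger RNA made by the growing oocyte, since transcription stops before ovulation and resumes only weakly in the pronuclear zygote. Which proteins are made is then set largely by which stored messengers are loaded with ribosomes, are kept masked, or are degraded. A polysome is a messenger carrying several ribosomes, and the polysomal share of a messenger, set against its level in total RNA, is a common readout of how far it is engaged in translation.

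Values are RPKM, the reads of a gene scaled to its length and to the size of its library, rescaled here so that the median gene has the same level in every library. Differences are polysomal minus total RNA on the log2(rescaled RPKM + 1) scale, as the estimate ± its standard error with n = 4 against 4, and this scale understates differences of genes at low RPKM. Levels are relative within a library, so the amount of RNA on polysomes in a zygote was not measured, and fewer cells and less RNA per cell cannot be told apart. Read depths recovered from the steps between low values were 7.66 to 17.3 M reads for the IMZ polysomal libraries and 49.5 to 60.6 M for the IMZ total RNA libraries. Spearman correlations across the joined genes were 0.866 to 0.917 among the 4 polysomal libraries, 0.990 to 0.995 among the 4 total RNA libraries, and 0.755 to 0.826 between the fractions. All 12 oocyte and zygote markers on the list used were present in both fractions. Of 21 cumulus and granulosa cell markers 0 were listed on polysomes and 1, Cyp19a1, in total RNA at 2.52 to 3.12 deposited RPKM. Of 9 blood cell markers 0 and 1 were listed. Of 18 sperm transcripts 2, Odf2 and Prm2, were listed on polysomes.

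In all, 52.4% of the joined genes differed between the fractions, in nearly equal numbers on either side. Of the 6324 genes, 1722 (27.2%) were higher and 1590 (25.1%) lower on polysomes at a limma Benjamini-Hochberg adjusted p under 0.05. The higher genes differed by more. Among those that passed, 1114 were higher and 611 lower by at least 1 on the log2 scale, and 227 were higher and 29 lower by at least 2. In 1630 genes (25.8%) all 4 polysomal libraries lay above all 4 total RNA libraries, and in 1639 (25.9%) all 4 lay below. The middle of the distribution is set by the rescaling. With RPKM as deposited the median gene moved from -0.02 to -0.51, and 953 genes were higher and 2911 lower. Of the 3312 genes called 66 changed sign. Once each set was centred on its own median 0 did. That follows almost by construction, since the rescaling divides each library by a single factor. Higher and lower are therefore to be read relative to the median gene. The join itself leaves out genes scarce on polysomes, so the counts and medians of gene lists cover their joined members and not whole lists.

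**Figure D1:**
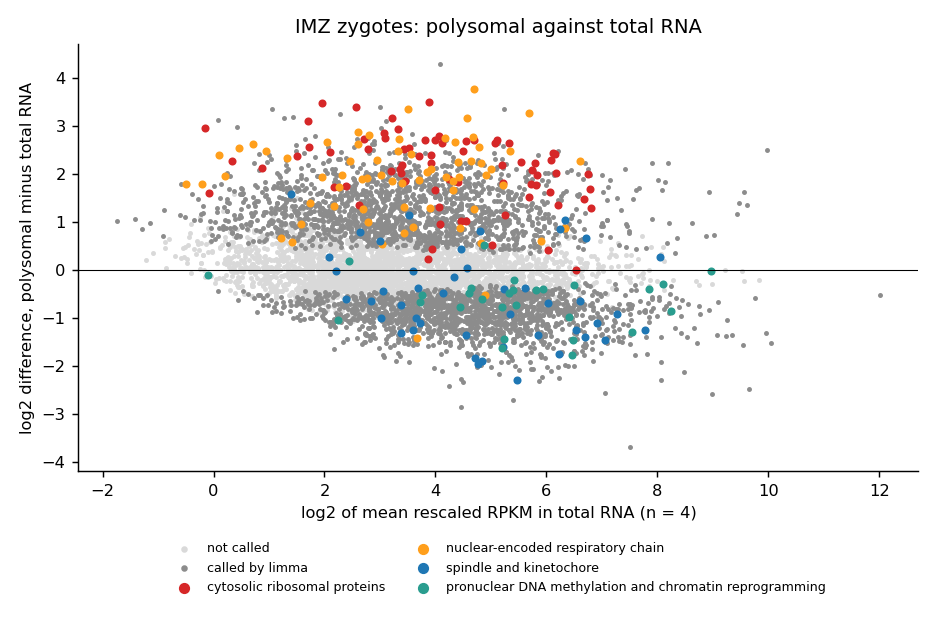
Log2 difference between polysomal and total RNA in IMZ zygotes (vertical axis) against the log2 of the mean rescaled RPKM in total RNA (horizontal axis) for 6324 genes. Dark grey points passed limma's test, light grey points did not, and colours mark 4 gene lists. Most ribosomal protein and respiratory chain genes lie above 1, and most spindle and chromatin genes lie below 0.

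The gene with the largest polysomal excess was Lars2 (ENSMUSG00000035202), the mitochondrial leucyl-tRNA synthetase. Its polysomal libraries held 601.8, 151.4, 625.4 and 243.8 RPKM in the order of replicates 1 to 4, and its total RNA libraries 18.4, 16.1, 20.8 and 12.7. The polysomal values varied widely among themselves but did not overlap the total RNA values, and the difference was 4.28 ± 0.41 (limma adjusted p = 2.24e-05). Of the 50-base stretches of Lars2 0.078% also occur in transcripts of 1 other gene, Gm15564. Whether reads of other RNA add to its polysomal values was not tested. Next came Atp5k (ENSMUSG00000050856), a small subunit of the ATP synthase. It held 480.4, 244.4, 443.6 and 328.9 RPKM on polysomes against 24.3, 21.7, 24.6 and 33.6 in total RNA, a difference of 3.76 ± 0.22 (limma adjusted p = 3.15e-06). Uqcr10 (ENSMUSG00000059534), a subunit of respiratory complex III, held 94.7, 145.6, 159.7 and 104 on polysomes and 10.03, 10.7, 12.8 and 11.8 in total RNA, a difference of 3.34 ± 0.19 (limma adjusted p = 3.15e-06). The lowest polysomal library stood 7.28-fold above the highest total RNA library in Atp5k and 7.42-fold above it in Uqcr10. The 12 genes at the top also included Atp5mpl and Atp5e of the ATP synthase, the cytosolic ribosomal protein genes Rps29, Rpl26 and Rps21, the histone H2A gene H2ac19, Tmem258, a subunit of the oligosaccharyltransferase of the endoplasmic reticulum, and Ccnb1ip1, which acts in meiotic crossing over. Tmem258 differed by 3.38 ± 0.29 and Ccnb1ip1 by 3.34 ± 0.23, with groups that did not overlap. H2ac19 was highest in polysomal replicate 3, at 249.6 RPKM, while the other polysomal libraries held 5.67 to 18.7. Without that library the difference was 2.1, and H2ac19 no longer passed without total RNA replicate 1, its lowest library (limma adjusted p = 0.0531). With the trend of every library on transcript length taken out it stood at 1.44 (limma adjusted p = 0.202). Every 50-base stretch of the H2ac19 transcript also occurs in transcripts of other genes, so how reads were divided among copies is uncertain.

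The gene with the largest polysomal deficit was Nexn (ENSMUSG00000039103), which encodes an actin-binding protein. Its polysomal libraries held 10.3, 6.89, 20.6 and 19.07 RPKM and its total RNA libraries 172.9, 163.7, 174.9 and 213.2, a difference of -3.69 ± 0.29 (limma adjusted p = 8.25e-06). The lowest total RNA library stood 7.96-fold above the highest polysomal library. Sap30, a subunit of the SIN3 histone deacetylase complex, was among the more abundant messengers in total RNA at 458.8, 472, 454.2 and 635.1 RPKM, and held 68.5, 60.8, 68.8 and 153.8 on polysomes, a difference of -2.6 ± 0.27. Psip1, a chromatin-bound transcriptional coactivator, held 18.1, 16.8, 23.8 and 28.2 on polysomes and 131.3, 132.7, 122.2 and 144.6 in total RNA, a difference of -2.58 ± 0.17 (limma adjusted p = 4.25e-06). The fractions did not overlap in any of the 3, although Sap30 stood higher in replicate 4 than in the other replicates of both fractions. The rest of the 12 lowest were Hmgn5 and Anp32b, which bind nucleosomes or histones, the zinc finger gene Zfp982, D6Ertd527e, the mitotic motors Kif20b and Cenpe, the translation initiation genes Eif3j2 and Eif5b, and Upf3b, a factor of nonsense-mediated decay. Their differences ran from -2.87 in Hmgn5 to -2.28 in Upf3b. Hmgn5 and Zfp982 rest on few reads in their lowest polysomal libraries, about 12 and 21, and 91.8% of the 50-base stretches of Eif3j2 also occur in transcripts of other genes.

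**Figure D2:**
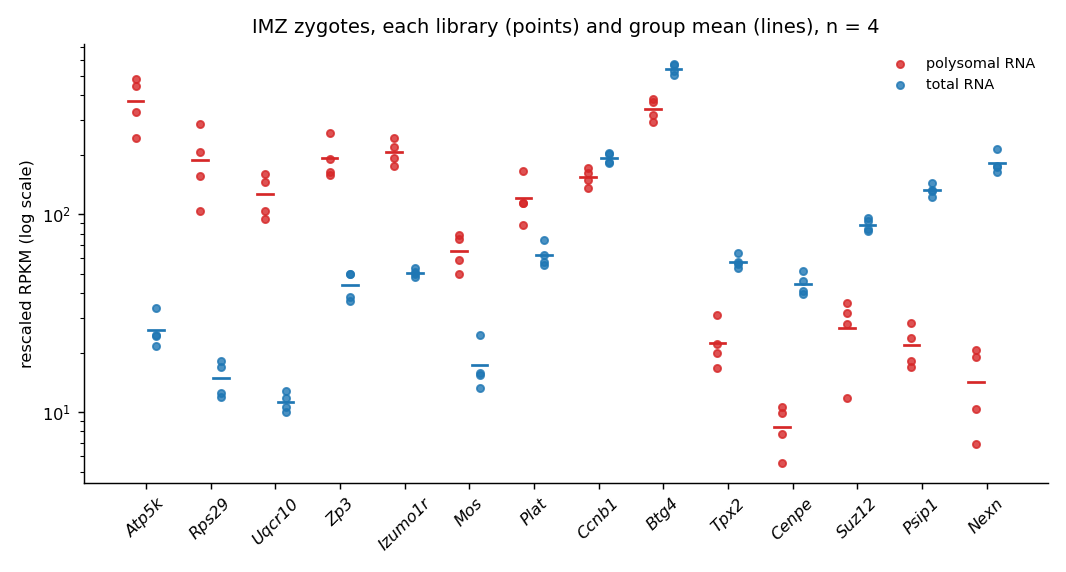
Rescaled RPKM on a log axis of 14 genes in each of the 4 polysomal and 4 total RNA libraries of IMZ zygotes (points), with the mean of each group (lines). The fractions do not overlap in any of these genes, from Atp5k, where polysomal values of 244.4 to 480.4 stand above total values of 21.7 to 33.6, to Nexn, where the order is the reverse.

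The list with the highest median on polysomes was that of the cytosolic ribosomal proteins, the building blocks of the ribosome itself. Of 84 genes of this list in the total RNA table, 72 were joined, and of these 67 were higher and 0 lower on polysomes, against 27.2% and 25.1% of all joined genes. Their median difference was 2.17, against -0.02 for all joined genes. Taken library by library against the mean of total RNA, the median was 2.01, 1.97, 2.85 and 1.64 in polysomal replicates 1 to 4. Without replicate 3, the highest of them, 67 were higher and the median was 1.93. Rpl36 of the large subunit held 393, 331.8, 420.4 and 361.6 RPKM on polysomes and 64.8, 60.5, 68.8 and 84.96 in total RNA, a difference of 2.42 ± 0.14 (limma adjusted p = 3.15e-06). Rpl7a held 305.9, 286.6, 297.7 and 268.5 against 104.6, 103, 105.3 and 98.98, a difference of 1.48 ± 0.11. Rps29 of the small subunit held 286, 155.8, 205.9 and 103.8 against 11.9, 12.4, 16.99 and 18.1, a difference of 3.5 ± 0.28. In each of the 3 the fractions were far apart. The 5 members that did not pass were Rpl7l1, Rplp2, Rpl5, Rps27l and Rpl4, named after their values were seen, at 0.42, 0.52, 0.40, 0.22 and 0.00. Between 26.4% and 81.2% of the 50-base stretches of the 7 ribosomal protein transcripts chosen by the naming rule and reported also occur in transcripts of other genes. These are short messengers, with a median coding length of 456 bases, and after removal of the length trend 48 were higher, 1 was lower and the median was 1.06. Rpl36 then stood at 0.29 and no longer passed (limma adjusted p = 0.177).

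Ribosomal protein messengers are known for a terminal oligopyrimidine tract, an unbroken run of C and T at their start that ties their translation to growth signals. RefSeq start sites (build GRCm38.p6) were searched for a run of at least 8 C or T from 50 bases before to 50 after the start, on the sense strand. Of 52 ribosomal protein genes found there, 84.6% held such a run, against 36.9% of 5144 joined genes and 39.3% of all 27025 genes of the RefSeq set. These shares include runs that lie wholly before the start and are not part of the messenger. At least 28 of the 52 held a run that reached within 15 bases of the start. The share of all genes was not counted for this narrower span. The windows of the 4 genes with the longest runs within 15 bases of the start are given, from 15 bases before the start to 15 after it. The part of the run that lies in the window is in capitals. In all 4 it begins before the annotated start and ends after it, so only its later part can belong to the messenger. The windows were chosen for their runs, not for their values. They lie at chr2:26910792-26910821 (plus strand), chr7:109519180-109519209 (plus strand), chr3:130730323-130730352 (minus strand) and chr2:39005117-39005146 (minus strand).
Rpl7a: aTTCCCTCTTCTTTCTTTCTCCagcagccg
Rpl27a: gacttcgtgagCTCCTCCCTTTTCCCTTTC
Rpl34: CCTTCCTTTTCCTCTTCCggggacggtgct
Rpl35: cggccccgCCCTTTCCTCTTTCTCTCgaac
The 4 genes differed by 1.48, 2.37, 1.6 and 1.76. Among ribosomal protein genes the median difference was 2.06 with such a run and 1.96 without one, and among the other joined genes it was -0.09 and -0.02.

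Other messengers of the translation machinery had calls on both sides, as had all joined genes (27.2% higher and 25.1% lower). Of 13 elongation factors and other messengers with an oligopyrimidine start 5 were higher and 3 lower, with a median of 0.49. That median was 0.28 without polysomal replicate 2, -0.05 with RPKM as deposited and -0.18 after removal of the length trend. Eef2, the translocase of elongation, held 198.6, 197.4, 236.8 and 154 RPKM on polysomes and 69.6, 73.8, 82.5 and 71.1 in total RNA, a difference of 1.38 ± 0.15 (limma adjusted p = 3.96e-05). Eef1d differed by 1.49 ± 0.14. Nap1l1, a histone chaperone on the same list, was lower, at -1.5 ± 0.29. Eef1a1, which delivers aminoacyl-tRNA to the ribosome, held 341.1, 599.6, 471 and 215.9 against 292.6, 259.2, 280.7 and 268, with overlapping groups and a difference of 0.47 ± 0.26 that did not pass (limma adjusted p = 0.164), although it did without polysomal replicate 4, at 0.73 (limma adjusted p = 0.00861, over the 8 left-out libraries 0.00861 to 0.351). Of 45 genes with an initiation factor symbol, which include kinases and binding proteins of initiation factors, 16 were higher and 14 lower, and their median was 0.08, or -0.13 after removal of the length trend. The higher ones included Eif6 (1.86 ± 0.20), which keeps the ribosomal subunits apart, and Eif2b4 (1.28 ± 0.14), a subunit of the exchange factor for eIF2. The lower ones included Eif5, the GTPase activator of start codon selection, at 17.3, 19.2, 16.5 and 19.5 against 44.5, 42.1, 43.04 and 50.1, a difference of -1.26 ± 0.13, and Eif5b, which joins the subunits, at -2.32 ± 0.25.

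Messengers of the mitochondrial respiratory chain, which makes most of the egg's ATP, were also concentrated on polysomes. Of 82 nuclear genes of the respiratory chain in the total RNA table, 67 were joined, and of these 61 were higher and 2 lower on polysomes, with a median of 1.95 and library medians of 2.03, 1.81, 2.15 and 2.07. Atp5j2 held 200, 140.7, 205.4 and 178.8 RPKM on polysomes and 25.4, 22.9, 25.9 and 28.1 in total RNA, a difference of 2.77 ± 0.15 (limma adjusted p = 3.15e-06). Ndufb7 of complex I held 44.2, 52.5, 64.2 and 44.9 against 5.58, 5.26, 6.8 and 6.81, a difference of 2.87 ± 0.17. The groups were apart in both. The 2 lower members, named after their values were seen, were Cox6b2, the testis form of a cytochrome oxidase subunit, at -1.42 ± 0.33, and Sdha, the large catalytic subunit of complex II, at -0.54 ± 0.16. With the length trend removed 46 were higher and the median was 0.84.

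Mitochondrial ribosomal proteins, which build the ribosome inside the organelle, gave 45 higher and 0 lower of 63 joined genes, with a median of 1.18. Mrps18b held 89, 110.5, 110.6 and 106.9 RPKM on polysomes against 22.1, 20.96, 21.4 and 20.9 in total RNA, a difference of 2.23 ± 0.12 (limma adjusted p = 3.15e-06), and Mrps18a differed by 2.43 ± 0.14. The 13 messengers made inside the mitochondrion, which are translated there and not on cytosolic polysomes, went the other way. Of these 0 were higher and 7 lower, with a median of -0.57, and 6 did not pass. All 13 were listed in the polysomal libraries, which therefore also hold reads assigned to RNA that is not on cytosolic polysomes. How much such RNA the fraction held was not measured. The messenger mt-Atp6 held 263.3, 387.3, 538.1 and 439.6 on polysomes and 925.8, 954.4, 873.3 and 1236 in total RNA, a difference of -1.32 ± 0.22 (limma adjusted p = 0.000587) that was -0.30 and did not pass after removal of the adenine trend (limma adjusted p = 0.234). Nearly all of its sequence (99.5% of 50-base stretches) also occurs in other genes. The sign of the list's median changed with the removal of composition trends, with 0.14 after removal of the GC trend, 0.44 after removal of the adenine trend and -1.77 after removal of the length trend.

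Replication-dependent histones have messengers that end in a stem-loop and carry no long poly(A) tail, and their joined members were mostly higher on polysomes. Of 47 such genes in the total RNA table only 20 were joined. Of these 17 were higher and 0 lower, with a median of 1.76 and library medians of 1.66, 1.06, 2.63 and 2.05. The other 27 were listed in total RNA alone and have no ratio. The join leaves out genes scarce on polysomes, so these counts do not describe the class as a whole. H3c7 held 769.8, 556.1, 813.8 and 725.3 RPKM on polysomes and 106.2, 192.9, 184 and 200.6 in total RNA, a difference of 2.09 ± 0.21 (limma adjusted p = 3.4e-05). H2bc12 held 459.8, 401.1, 711.5 and 531.4 against 127.9, 161.1, 142.4 and 132.1, a difference of 1.87 ± 0.18. The fractions did not overlap in either. Without polysomal replicate 3, 16 were higher and 0 lower, with a median of 1.51. With the length trend removed 5 were higher and 1 lower, and H2bc12 stood at 0.01. Between 30.1% and 74.2% of the 50-base stretches of the 4 histone transcripts with the smallest p occur in transcripts of other genes, so values of single genes are uncertain. Of 16 other histone genes and their binding proteins 6 were higher and 4 lower, against 27.2% and 25.1% of all joined genes. Nasp, a chaperone of H3 and H1, was lower at 76.8, 77.4, 78.9 and 101.2 against 220.6, 199.8, 193.6 and 278, a difference of -1.4 ± 0.15. Chaf1a, which places histones behind replication forks, was also lower, at -1.05 ± 0.17. The variant H3.3 gene H3f3b was higher at 0.72 ± 0.12, but did not pass with RPKM as deposited (0.16).

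Genes of the egg surface were on the polysomal side. All 6 joined genes of this list passed as higher, with a median of 1.73 that ran from 1.08 to 1.3 after removal of the adenine, length or GC trend. Izumo1r (Juno), the egg receptor for the sperm protein IZUMO1, held 218.5, 175.4, 244.1 and 191.6 RPKM on polysomes and 53.3, 51.3, 49.8 and 48.4 in total RNA, a difference of 2.0 ± 0.13 (limma adjusted p = 4.25e-06). Zp3, a zona pellucida glycoprotein that binds sperm, held 190.4, 162.8, 257.9 and 157.3 against 38.3, 36.6, 50.05 and 50.1, a difference of 2.1 ± 0.18 (limma adjusted p = 1.35e-05). Cd9, a tetraspanin needed for gamete fusion, differed by 1.82 ± 0.21 and Zp1 by 1.64 ± 0.21. All 4 had separate groups. Zp2 held 68.4, 82.7, 56.8 and 52.5 against 42.8, 42.2, 55.5 and 47.7, with overlapping groups and a difference of 0.45 ± 0.17 (limma adjusted p = 0.0451). It passed without polysomal replicate 3 or 4 or total RNA replicate 3, but not with any of the other 5 libraries left out (limma adjusted p 0.0195 to 0.125), and stood at -0.11 with RPKM as deposited. Of 9 factors secreted by the oocyte 5 were higher and 1 lower. Fgf8 differed by 1.92 ± 0.17 and Oosp2 by 1.88 ± 0.19. Gdf9, a growth factor for the follicle, held 890.8, 767.3, 793.9 and 867.9 against 424.1, 427.2, 720.1 and 505.8, a difference of 0.71 ± 0.18, with total RNA replicate 3 close to the lowest polysomal library. It did not pass after any of the 3 trend removals (0.27 to 0.42) or with RPKM as deposited (0.15). Bmp15, its partner, differed by 0.34 ± 0.13 (limma adjusted p = 0.0491), did not pass when polysomal replicate 1 or any total RNA library was left out (limma adjusted p 0.0157 to 0.118), and stood at -0.22 with RPKM as deposited.

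The subcortical maternal complex and other maternal effect genes, which the embryo needs to pass its first divisions, divided by member. Of 17 joined genes 7 were higher and 7 lower, against 27.2% and 25.1% of all joined genes, with a median of -0.02. The median was 0.08 after removal of the GC trend and 0.42 after removal of the adenine trend, which left 7 higher and 3 lower. On the higher side Khdc3 held 136.3, 71.4, 124.7 and 139.2 RPKM on polysomes and 22.5, 26.2, 30.7 and 29.01 in total RNA, a difference of 2.04 ± 0.21 (limma adjusted p = 3.78e-05). Tle6 differed by 1.66 ± 0.16 and Ooep, at 360.8, 426.8, 494.8 and 293.3 against 163.1, 158.6, 163.5 and 165, by 1.25 ± 0.16. On the lower side Nlrp5, its large NOD-like subunit, held 111.7, 112.7, 93.7 and 108.8 against 159.8, 164.1, 198.5 and 217.7, a difference of -0.78 ± 0.14 (limma adjusted p = 0.000993), and Nlrp4f, a related protein, differed by -0.93 ± 0.12. Nlrp5 did not pass after removal of the adenine trend (-0.28). Uchl1, an abundant deubiquitinase of the oocyte, was higher at 2532, 1989, 2547 and 2176 against 743.2, 780.2, 797.3 and 697, a difference of 1.61 ± 0.14. Dppa3, which protects the maternal genome from demethylation, held 526.4, 573.6, 548 and 370.6 against 481.5, 477, 500.2 and 556.7, with overlapping groups and a difference of -0.02 ± 0.16 (limma adjusted p = 0.944). Its value moved to -1.18 after removal of the length trend and to 0.63 after removal of the adenine trend.

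Messengers known for being switched on during meiotic maturation, by lengthening of their poly(A) tails, were mostly on the total RNA side in these zygotes. Of 30 joined genes 4 were higher and 18 lower, with a median of -0.56, which was 0.09 after removal of the GC trend. With the adenine trend removed 4 were higher and 11 lower, and the median was -0.12. Mos, the kinase that starts the MAP kinase cascade in meiosis, was the exception with the largest excess. It held 58.5, 50.1, 79.1 and 74.7 RPKM on polysomes and 13.2, 15.4, 24.6 and 15.8 in total RNA, a difference of 1.88 ± 0.21 (limma adjusted p = 6.01e-05). Plat, a protease gene and the classic dormant messenger of the mouse oocyte, held 114.3, 165.8, 114.2 and 88.3 against 55.5, 57.4, 74.6 and 62.1, a difference of 0.91 ± 0.19 (limma adjusted p = 0.00243). In both Mos and Plat every polysomal library lay above every total RNA library, and Plat did not pass with RPKM as deposited (0.36). On the lower side Tpx2, which nucleates spindle microtubules, held 16.7, 31.03, 22.2 and 19.8 against 57.4, 56.4, 53.6 and 63.6, a difference of -1.36 ± 0.18 (limma adjusted p = 0.000169). Ccnb1, cyclin B1, of whose 50-base stretches 42.1% also occur in other genes, held 161.9, 149.3, 136.1 and 172.1 against 181.7, 203.4, 183.2 and 202. The groups lay close together without overlap, and the difference of -0.32 ± 0.12 (limma adjusted p = 0.0477) turned to 0.16 after removal of the GC trend. It no longer passed when any library other than polysomal replicate 4 was left out (limma adjusted p 0.0236 to 0.141). Bub1b, a spindle checkpoint kinase, was lower at -1.27 ± 0.16. Dazl, an RNA-binding activator of such messengers, held 62.7, 72.8, 71.7 and 52.9 against 57.3, 59.96, 52.9 and 61.05, with overlapping groups and a difference of 0.16 ± 0.14 (limma adjusted p = 0.356) that became 0.85 and passed after removal of the GC trend (limma adjusted p = 0.00033), and -0.40 with RPKM as deposited.

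A cytoplasmic polyadenylation element, read by the protein CPEB, is the best known signal for this tail lengthening. The last 100 bases of each GENCODE M21 transcript with a 3′ UTR were searched for TTTTAT or TTTTAAT on the sense strand, without any check that this end is the one used in zygotes. The motif stood in 19.9% of the genes searched. The 1235 genes with it had a median difference of -0.25, with 18.3% higher and 34.7% lower. The 4975 genes without it had a median of 0.05, with 29.4% higher and 22.9% lower. The order was the same in each of 4 equal groups by coding length, from 0.25 against 0.81 in the shortest to -0.65 against -0.41 in the longest. Genes with the motif also held slightly more adenine, at a median of 26.4% against 25.5%, and the part of this in the difference was not tested. The windows of 7 named genes that hold it are given, 30 bases each with the motif in capitals. They were picked by no set rule and do not stand for the shares above.
Nexn: atattgggtggTTTTATatttaattttctg
Sap30: tTTTTAATgttgttgtcatttttgattcta
Psip1: tgtgtaaattgTTTTAATtaaagttttttc
Cenpe: ttgaaggaaaaTTTTAATctttccagatgg
Btg4: gataaatccctTTTTATgtctttttaaaag
Plat: gtatatttataTTTTAATctattttagttt
Gdf9: gagtgctgtggTTTTATgtgacggaagaat
Of these Nexn, Sap30, Psip1, Cenpe and Btg4 were lower on polysomes, while Plat and Gdf9 were higher. The letters were not found in this window of the chosen transcripts of Mos, Ccnb1 and Tpx2, which says nothing of other sites or ends.

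The factors that store and remove maternal messengers had calls on both sides, as had all joined genes. Of 27 genes for CPEB, DAZL and other storage and polyadenylation proteins 10 were higher and 7 lower, against 27.2% and 25.1% of all joined genes. Pabpn1l, a nuclear-type poly(A)-binding protein of the oocyte, held 314.7, 195.4, 305.8 and 297.7 RPKM on polysomes against 105.9, 95.9, 96.3 and 76.05 in total RNA, a difference of 1.55 ± 0.18 (limma adjusted p = 6.32e-05), and Ybx2, a packing protein of stored messengers, differed by 0.91 ± 0.12, though it did not pass after removal of the GC trend (0.15). Of 22 genes for BTG4, the CCR4-NOT deadenylase and decapping 1 was higher and 11 were lower, with a median of -0.36. After removal of the length or the adenine trend 6 were lower, and the median was -0.13 and -0.21. Btg4, the adaptor that brings the deadenylase to maternal messengers, held 317.9, 291.1, 368.5 and 381.5 against 527.1, 566.5, 507.7 and 575.2, a difference of -0.68 ± 0.13 (limma adjusted p = 0.00154). Cnot7, a catalytic subunit, held 19.99, 10.3, 27.8 and 32.2 against 64.99, 67.5, 56.9 and 58.1, a difference of -1.52 ± 0.29. The groups were separate in both. Btg4 did not pass after removal of the GC trend (-0.08) or the adenine trend (-0.15). Cnot2 differed by -1.2 ± 0.16 and Pan3 by -1.35 ± 0.21.

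In the cell cycle, messengers of the spindle, the kinetochore and cohesin were low on polysomes. Of 45 spindle and kinetochore genes 6 were higher and 28 lower, with a median of -0.66. Cenpe, a kinetochore motor, held 7.74, 5.54, 9.88 and 10.6 RPKM on polysomes and 40.8, 46.01, 39.7 and 51.99 in total RNA, a difference of -2.3 ± 0.20 (limma adjusted p = 1.31e-05). Numa1, which anchors spindle poles, held 5.6, 5.48, 4.97 and 9.58 against 23.7, 28.6, 27.2 and 30.1, a difference of -1.97 ± 0.20. Cdca8, a part of the chromosomal passenger complex, differed by -1.77 ± 0.18 and Prc1, which bundles the midzone, by -1.11 ± 0.11. All 4 had separate groups. Of 13 genes of meiotic cohesin and condensin 0 were higher and 8 lower, with a median of -0.86. Smc3, a core cohesin subunit, held 9.66, 10.5, 12.6 and 14.6 against 28.9, 30.9, 35.8 and 38.5, a difference of -1.43 ± 0.17, and Wapl, which releases cohesin, differed by -1.78 ± 0.26. The median coding length was 1893 bases in the spindle list and 3654 in the cohesin list, with 29.4% and 31.5% adenine in the transcript, against 1440 bases and 25.7% over all joined genes. After removal of the adenine trend the spindle median was -0.01, with 12 lower, and the cohesin median -0.18, with 4 lower.

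Motors and tubulins parted ways. Among 35 genes of the combined list 11 were higher and 17 lower, against 27.2% and 25.1% of all joined genes. The tubulins Tubb2a, Tubb4b, Tubb6 and Tuba4a were all higher, at 1.71, 1.61, 1.53 and 1.55. Tubb4b, with 50.9% of its 50-base stretches shared with other genes, held 1624, 1582, 1274 and 1491 RPKM on polysomes and 458.5, 478.8, 472.2 and 538.9 in total RNA, a difference of 1.61 ± 0.13 (limma adjusted p = 1.06e-05). Over the whole list 9 of 12 tubulins were higher and 1 was lower, against 2 higher and 16 lower of 23 kinesins, a split made after the values were seen. After removal of the adenine trend 7 tubulins were higher and 5 kinesins lower, and after removal of the length trend 8 and 10. The lowest kinesin was Kif20b, a motor of cytokinesis, at -2.43 ± 0.34. The anaphase-promoting complex, the ubiquitin ligase that ends metaphase, was on the polysomal side, with 9 higher and 2 lower of 14. Its RING subunit Anapc11 held 25.1, 16.1, 22.2 and 27.4 against 3.23, 3.42, 3.45 and 4.19, a difference of 2.35 ± 0.20 (limma adjusted p = 1.1e-05), and its E2 enzyme Ube2c differed by 1.83 ± 0.19. With the length trend removed 4 were higher and the median fell from 0.66 to 0.13. Of 28 genes for cyclin B, CDK1 and meiotic exit 7 were higher and 10 lower, against 27.2% and 25.1% of all joined genes. Their median was 0.03, with members from -1.5 to 1.88. Mapk3 (ERK1), Cdc25b and Map2k2, which act with Mos or activate CDK1, were higher at 1.62 ± 0.14, 1.09 ± 0.13 and 1.3 ± 0.17. With Mos these are the members with the smallest p, and lower members are not named here.

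Chromatin genes acting in the pronuclei were low on polysomes. Of 28 genes for DNA methylation and chromatin reprogramming 1 was higher and 19 were lower, with a median of -0.51. Ezh2, the methyltransferase of Polycomb complex PRC2, held 78.3, 80.2, 68.3 and 72.95 RPKM on polysomes and 185.9, 181.6, 169.6 and 213.4 in total RNA, a difference of -1.31 ± 0.12 (limma adjusted p = 1.78e-05). The remodellers Smarca5 and Chd4 differed by -1.45 ± 0.14 and -1.46 ± 0.17. Dnmt1, the maintenance DNA methyltransferase, held 169.2, 171.3, 167.3 and 154.5 against 296.8, 276.6, 305.6 and 329.7, a difference of -0.86 ± 0.11. In all 4 the polysomal libraries lay below the total RNA libraries. Tet3, the dioxygenase that oxidizes methylcytosine in the paternal pronucleus, held 177.7, 149.9, 178 and 194.5 against 227.7, 251.2, 228.7 and 212.4, a difference of -0.40 ± 0.12 (limma adjusted p = 0.0212) that became 0.07 after removal of the length trend and did not pass when total RNA replicate 1, 2 or 3 was left out (limma adjusted p over the 8 left-out libraries 0.0132 to 0.0805). The 1 higher member, named after its values were seen, was Dnmt3l, a cofactor of DNA methylation, at 0.52 ± 0.20. After removal of the length trend 9 genes of the list were lower, and the median was -0.18.

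Of 19 transcription factors tied to zygotic genome activation 2 were higher and 6 lower, with a median of -0.21 that was -0.08 without polysomal replicate 1, 0.04 after removal of the GC trend and 0.16 after removal of the adenine trend. Pou5f1 (Oct4) was higher, at 187.9, 166.8, 133.2 and 155 RPKM against 85.9, 85.7, 87.5 and 95.3, a difference of 0.84 ± 0.13 (limma adjusted p = 0.000448), and did not pass after any of the 3 trend removals (0.23 to 0.31). Obox1 and Obox5, maternal homeobox genes, were lower at -1.46 ± 0.24 and -1.37 ± 0.25, and the insulator protein gene Ctcf was lower at -1.28 ± 0.21. Obox genes resemble one another, with 59.3% of the 50-base stretches of Obox1 shared. Of 38 genes for DNA replication, which takes place in the pronuclei, 12 were higher and 7 lower. Over all joined genes 27.2% were higher and 25.1% lower. Thymidine kinase Tk1 and thymidylate synthase Tyms, which make DNA precursors, were higher at 2.13 ± 0.14 and 1.43 ± 0.21, and the replication factor Mcm10 was lower at -0.86 ± 0.13.

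Other functions of the cell showed shares between these extremes. Over all joined genes 27.2% were higher and 25.1% lower, and the spliceosome list below lay near those shares. Of 35 proteasome genes 14 were higher and 5 lower, and the 4 with the smallest p were all higher, among them Psmb7, a subunit of the core particle, at 113.4, 75.3, 88.1 and 91.4 RPKM against 24.7, 24.9, 28.03 and 25.4, a difference of 1.78 ± 0.14 (limma adjusted p = 8.89e-06). After removal of the length trend 8 proteasome genes were higher and 7 lower, and the median moved from 0.47 to -0.03, while it was 0.31 without polysomal replicate 2. Of 27 genes for entry into the endoplasmic reticulum 16 were higher and 6 lower, led by Sec61g of the translocon at 2.62 ± 0.15 and Ddost of the oligosaccharyltransferase at 2.01 ± 0.16. Their median of 0.81 was 0.26 after removal of the length trend, with 10 higher. Antioxidant and selenoprotein genes gave 11 higher and 2 lower of 18. Sod1, which removes superoxide, held 1164, 710.2, 1069 and 912.5 against 271.1, 255.1, 245.4 and 265.9, a difference of 1.87 ± 0.16 that was 0.39 and did not pass after removal of the length trend, and Txn1, thioredoxin, differed by 2.44 ± 0.15. Of 34 spliceosome and SR protein genes 7 were higher and 8 lower, among them Snrpc at 2.4 ± 0.19 and Srsf4 at -1.72 ± 0.19. Chaperones gave 5 higher and 9 lower of 22, and 4 and 3 after removal of the adenine trend. The constitutive chaperone Hsp90ab1 held 67.3, 45.4, 92.4 and 64.8 against 191.8, 213.2, 222.9 and 276.9, a difference of -1.76 ± 0.21 (limma adjusted p = 7.24e-05), while the heat-inducible Hspa1b, which shares 62.3% of its 50-base stretches with other genes, was higher at 2.31 ± 0.40. Of 9 genes of the integrated stress and unfolded protein responses 2 were higher and 3 lower. Atf4, whose translation is known to rise under stress through upstream reading frames, held 201.2, 244, 224.2 and 131 against 84.2, 81.3, 90.6 and 96.5, a difference of 1.14 ± 0.19, and the reticulum chaperone Hsp90b1 differed by -1.37 ± 0.14. Nuclear pore and transport genes gave 3 higher and 7 lower of 30, and the mTOR pathway, which controls oligopyrimidine messengers, 1 and 5 of 15, or 3 and 1 after removal of the length trend. Mtor itself held 7.31, 6.001, 6.6 and 7.52 against 10.8, 10.9, 12.6 and 11.1, a difference of -0.65 ± 0.16 that did not pass after removal of the length trend (-0.11). The sperm transcript Prm2, a protamine that packs sperm DNA, was higher on polysomes at 32.9, 14.3, 11.5 and 14.9 against 4.27, 7.04, 5.12 and 5.36, a difference of 1.49 ± 0.30 that was 0.07 after removal of the length trend, and the tail fibre gene Odf2 was lower at -1.35 ± 0.17. Both were also listed in oocytes, before fertilization. There Prm2 stood at 1.79 in IVO and 1.61 in COC, and Odf2 at -1.27 and -1.64. The origin of these 2 transcripts in the zygotes was not tested.

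**Figure D3:**
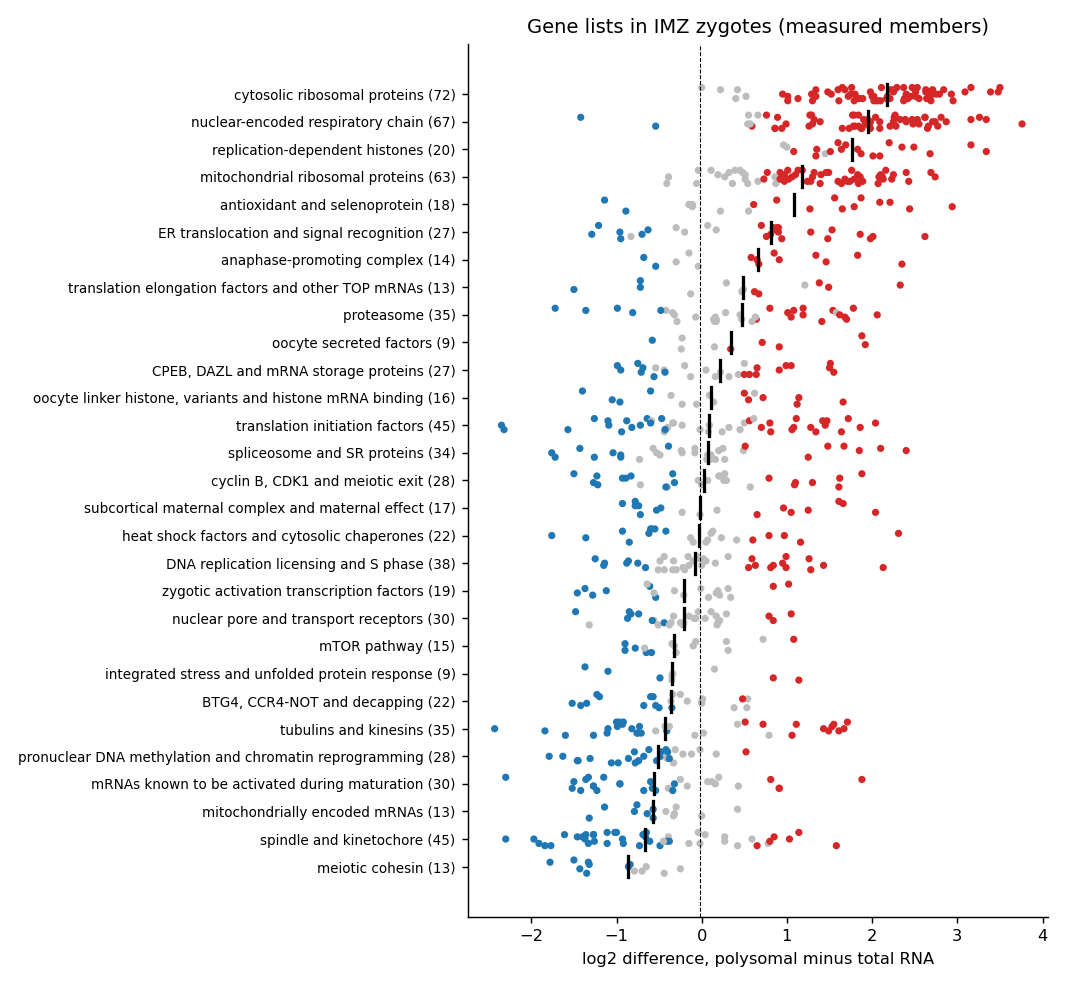
Log2 difference between polysomal and total RNA (horizontal axis) of the joined members of gene lists with at least 9 such members (one line each, number in brackets). Points are genes, red for higher and blue for lower by limma's test and grey for not passing, black bars are list medians, and the dashed line is the median of all joined genes. Medians run from -0.86 for meiotic cohesin to 2.17 for cytosolic ribosomal proteins.

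Across all genes the polysomal share followed features of the messenger. When genes were put in 5 equal groups by coding length, from a median of 525 to 3732 bases, the median difference went from 0.84 through 0.26, 0.00 and -0.28 to -0.46. In the group of shortest genes 696 genes were higher and 116 lower, and in the longest 83 and 556. In 5 equal groups by adenine content, from a median of 21.3% to 30.1% of the transcript, it went from 0.81 to -0.62, with 720 higher and 63 lower in the lowest group and 74 and 671 in the highest. Across genes, Spearman's rho with the difference was -0.545 for adenine, 0.477 for GC content, -0.465 for transcript length, -0.454 for coding length, -0.277 for 3′ UTR length and -0.115 for 5′ UTR length, over 6313 to 6319 genes that share these 8 libraries and are not independent replicates. Length and adenine each kept their order within 4 equal groups of the other, from 1.25 in short messengers low in adenine to -0.78 in long messengers rich in it. Polysomal and total RNA libraries differed in depth, and whether length and composition acted through library preparation was not tested.

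**Figure D4:**
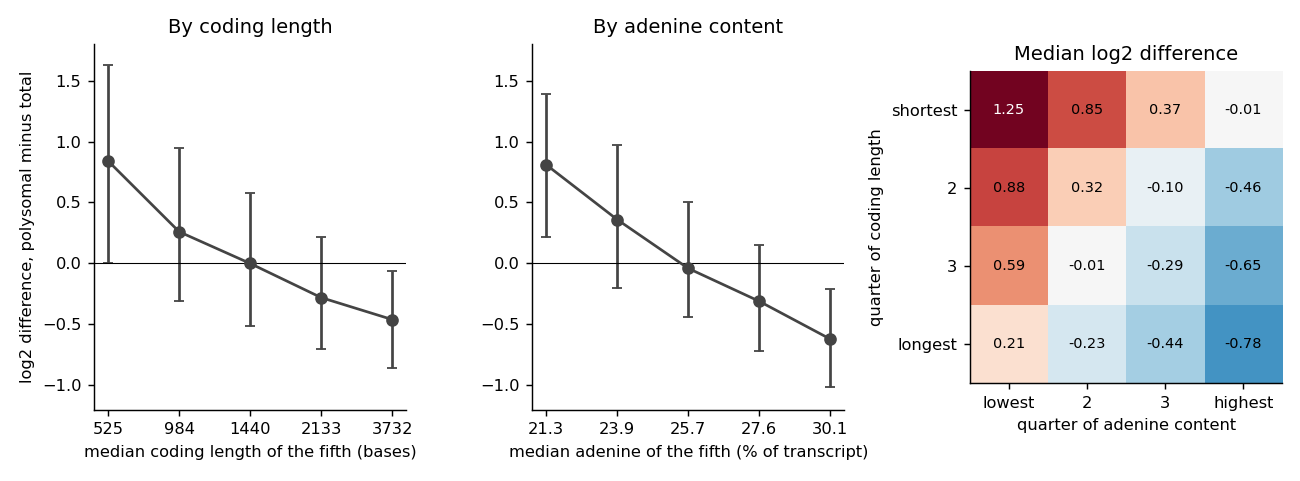
Median log2 difference between polysomal and total RNA (points, with bars for the quartiles of genes) in 5 equal groups of genes by coding length and by transcript adenine content, and the median in each combination of 4 groups of both. The median falls from 0.84 to -0.46 with length and from 0.81 to -0.62 with adenine.

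Examples from both ends follow, picked by no set rule. For 4 of the 12 lowest and 4 of the 12 highest genes the 60-base coding window with the most adenine is given, from GENCODE M21 transcripts. Adenine is in capitals.
Nexn: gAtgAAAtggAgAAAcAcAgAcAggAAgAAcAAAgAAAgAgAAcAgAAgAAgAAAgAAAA
Psip1: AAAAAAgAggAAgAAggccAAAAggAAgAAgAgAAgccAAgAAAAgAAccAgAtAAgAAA
Kif20b: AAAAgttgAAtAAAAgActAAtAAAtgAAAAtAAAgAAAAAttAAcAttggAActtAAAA
Eif5b: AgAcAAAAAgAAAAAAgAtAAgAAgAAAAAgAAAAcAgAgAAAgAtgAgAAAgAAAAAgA
Atp5k: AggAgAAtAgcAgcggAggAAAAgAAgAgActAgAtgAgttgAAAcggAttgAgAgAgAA
Uqcr10: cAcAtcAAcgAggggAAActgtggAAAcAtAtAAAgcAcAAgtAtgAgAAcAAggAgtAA
Tmem258: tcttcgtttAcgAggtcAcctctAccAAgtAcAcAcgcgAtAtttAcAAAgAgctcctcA
Atp5mpl: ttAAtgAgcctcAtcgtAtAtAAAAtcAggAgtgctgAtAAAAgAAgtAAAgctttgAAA
The windows of Nexn, Psip1 and Kif20b each held 37 adenines and that of Eif5b 43. The windows of Atp5k, Uqcr10, Tmem258 and Atp5mpl held 27, 28, 17 and 25. Longer coding sequences offer more windows, and the 4 low genes have 1587 to 5325 coding bases against 177 to 240. Over the whole coding sequence adenine made up 42.4%, 40.3%, 36.8% and 37.4% in the low genes and 29.2%, 24.6%, 18.3% and 31.6% in the high ones. Genes not shown make the ends overlap, since Sap30 of the 12 lowest held 26.55% and Rpl26 of the 12 highest 31.96%.

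No gene was shown to differ in its polysomal share between zygotes made in vitro and in vivo. The difference itself was tested with limma as an interaction of origin with fraction, fitted to the 16 zygote libraries, and called 0 of 6324 genes (0%). At an unadjusted p under 0.05 there were 332 genes (5.25%), of which 211 were larger in IMZ and 121 in IVZ, and the smallest adjusted p was 0.634. In IVZ alone 1128 genes were higher and 1060 lower on polysomes, 34.6% in all. Of these, 957 and 887 were called in the same direction in IMZ, which is 84.8% and 83.7% of the IVZ calls and 55.6% and 55.8% of the IMZ calls, and 0 genes were called in opposite directions. Across genes the differences of the groups had a Spearman's rho of 0.876. The IVZ polysomal library of replicate 1, which the authors excluded per the file headers, was the shallowest at 3.15 M reads and was kept. Its Spearman correlations with the IMZ polysomal libraries were 0.721 to 0.761. Among the IVZ polysomal libraries they ran from 0.724 to 0.900. The IVZ counts, the rho and the list medians here and below include this library and are not given without it. With it left out the interaction called 0 genes and the smallest limma adjusted p was 0.179.

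The 4 lists with the highest medians in IMZ also had the highest in IVZ. The IVZ median was 1.82 for ribosomal proteins, 1.69 for the respiratory chain, 1.57 for the egg surface, 1.24 for histones, -0.57 for maturation messengers and -0.68 for spindle genes. In the joint fit 54 of 72 ribosomal protein genes had a larger polysomal excess in IMZ than in IVZ, as did 17 of 20 histone genes and 3455 of all 6324 genes, and 0 of these passed. Among the genes with the smallest p, named after their values were seen, Rce1, a protease of prenylated proteins, held 30.1, 14.01, 27.9 and 19.4 RPKM on polysomes in IMZ and 6.62, 3.62, 6.59 and 7.76 in IVZ. Its total RNA values were 3.01, 4.52, 5.01 and 3.58 and 4.74, 4.21, 3.99 and 4.98. The polysomal excess in IMZ minus that in IVZ was 1.86 ± 0.37 (limma adjusted p = 0.634). Ifitm3, an antiviral membrane protein, went the other way, with 6.43, 10.7, 6.62 and 13.2 on polysomes in IMZ and 22.6, 32.9, 24.2 and 26.4 in IVZ, a difference of -1.51 ± 0.32 (limma adjusted p = 0.645). The polysomal groups did not overlap in either gene, but neither passed.

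**Figure D5:**
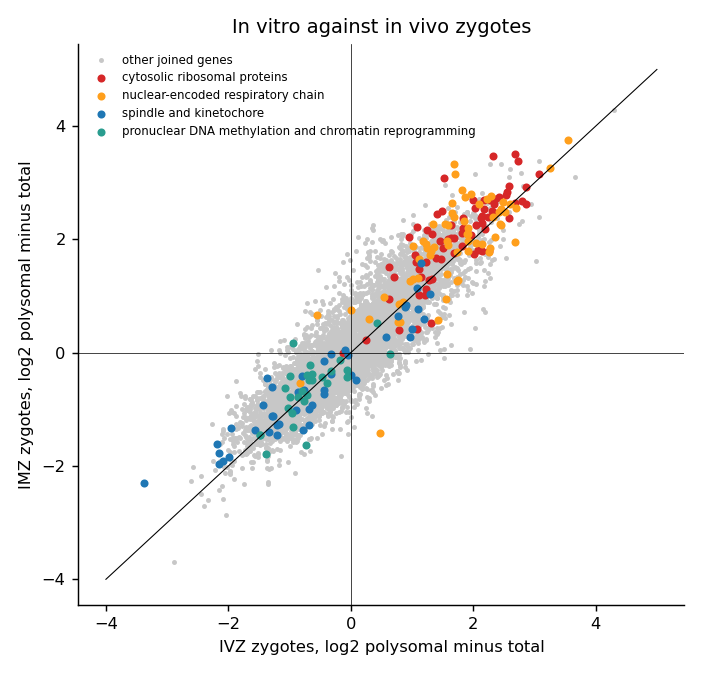
Log2 difference between polysomal and total RNA in IMZ zygotes (vertical axis) against IVZ zygotes (horizontal axis) for 6324 genes, with 4 gene lists in colour and the line of equal values. The points follow the line (Spearman's rho 0.876 across genes), with ribosomal protein genes at a median of 2.17 in IMZ and 1.82 in IVZ.

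Oocytes are set beside the zygotes without a test. Over the 5938 joined genes also listed in both oocyte tables, Spearman's rho across genes between IMZ and oocyte differences was 0.898 for IVO and 0.901 for COC. No library is shared, but all came from the same kit and processing. The ribosomal protein median was 2.14 in IVO and 1.9 in COC oocytes, and the spindle median -0.96 and -1.18. Mos stood at 1.88 in IMZ, 1.28 in IVZ, -0.29 in IVO and -0.47 in COC. Plat stood at 0.91, 1.06, -0.69 and -0.73, and Gdf9 at 0.71, 0.70, 0.09 and 0.12. The values for Mos and Plat were positive in both zygote groups and negative in both oocyte groups, a difference that was not tested. The oocyte tables were normalized apart from the zygote tables.

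A further 4500 genes stood in the total RNA table alone and have no ratio. Every gene in a table held at least 0.2 RPKM in all 8 of that table's libraries. Their mean in total RNA had a median of 1.44 RPKM, against 14.8 for joined genes, but 270 of them stood at 10 RPKM or more. The highest of these, named after their values were seen, were the histone genes H3c13 at 162.9 ± 12.8 (SD, n = 4) and H2ac12 at 76.5 ± 8.96. Ccna2, cyclin A2, held 39.98 ± 1.1, and Pcna, the replication clamp, 46.2 ± 2.79. Their polysomal levels are not analysed here.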

How the data were processed

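RNA was measured in 40 libraries in 10 groups of 4, with a SMARTer Stranded Total RNA kit (v2, Pico Input) per the labels' protocols. Per the submitters' processing notes the authors used DRAGEN and the build GRCm39. The annotation, the strand setting and read filters are not stated in those notes. Per the file headers the authors deposited RPKM per gene and library, and every listed gene held at least 0.2 RPKM in all 8 libraries of its table. The polysomal IVZ replicate 1, which the file headers mark as excluded by the authors, was kept and left out in an alternative. Tables of denuded oocytes and the authors' own comparisons were not used.

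The polysomal and total RNA tables of the zygotes were normalized apart. They were joined on the gene identifier, each library was rescaled by the median of its ratios to the geometric mean gene, and limma 3.58.1 (R 4.3.3) was run on log2(RPKM + 1) of the 8 IMZ libraries, with a variance trend and no covariate. The test of IMZ against IVZ used 16 libraries. The threshold was 0.05 after Benjamini-Hochberg adjustment. The fits were tested on simulated data.

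Depths come from the spacing of low RPKM values and from exonic lengths of GENCODE release M21, whose build (GRCm38) is older than the authors'. That release matched 6319 of 6324 genes and gave lengths and composition, one transcript a gene. Promoters are from RefSeq (GRCm38.p6). Trends of each library on transcript GC, length or adenine were removed with a natural spline of 4 degrees of freedom. Other alternatives were no rescaling, quantile normalization, a pseudocount of 0.1 or none, filters at 1 and 5 RPKM, array weights, no variance trend, a replicate block and each library left out.

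The genes named are the 12 highest and 12 lowest with separate groups, leaving out predicted and clone-named genes, the 4 members of each list with the smallest p, and 16 genes that are always named; 1 gene that the rule chose is not reported here. Members and lists were chosen with earlier results of these data known. Of 36 lists 31 had joined members. Those without were mitochondrial rRNAs, noncoding RNAs, snoRNA hosts, cumulus markers and blood markers.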

Additional observations from a re-analysis of the deposited data

Results flagged for a closer look

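In 25 of 298 groups of 4 libraries (149 named genes in each fraction) 1 library stood far from the other 3, by Dixon's test at its 95% critical value. Chance gives such a gap in about 1 of 20 groups. The values below are rescaled RPKM of that library, set against the range of the other 3.

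Total RNA replicate 4 stood apart in 10 genes, in each case as the highest library. These were Atp5mpl at 78.5 against 40.3 to 46.5, Rps21 at 11.7 against 8.07 to 8.67, Sap30 at 635.1 against 454.2 to 472, Anp32b at 360.8 against 223.5 to 243.1 and Eef1d at 31.7 against 23.2 to 24.6. The others were Eif2b4 at 35.2 against 28.9 to 29.9, Cnot2 at 28.2 against 25.7 to 25.97, Chd4 at 101.3 against 83.96 to 86.7, Srsf4 at 62.5 against 49.2 to 50.7 and U2af1 at 28.4 against 21.4 to 22.1. Total RNA replicate 3 stood apart in Mtor at 12.6 against 10.8 to 11.1.

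Polysomal replicate 3 stood apart in 6 genes, again always as the highest. These were H2ac19 at 249.6 against 5.67 to 18.7, Rps21 at 248.8 against 53.7 to 82.1 and Eef1g at 96.1 against 17.8 to 21.96. The other 3 were mt-Co2 at 309.4 against 156.2 to 172.4, H2bc4 at 191.3 against 79 to 96.9 and Anapc13 at 13.6 against 7.28 to 7.97. They include ribosomal protein and histone genes, and the results of those lists are given above with and without this library. In polysomal replicate 4 the genes were Sap30 at 153.8 against 60.8 to 68.8, Nasp at 101.2 against 76.8 to 78.9 and Numa1 at 9.58 against 4.97 to 5.6. In polysomal replicate 1 they were Mrps18b at 89 against 106.9 to 110.6 and Prm2 at 32.9 against 11.5 to 14.9, the second of them a sperm transcript. In polysomal replicate 2, always as the lowest library, they were Pabpn1l at 195.4 against 297.7 to 314.7, Obox1 at 28.6 against 64.2 to 66 and Sec11a at 32.97 against 41.1 to 42.8. No explanation for these libraries was tested.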

How the results depend on the processing

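Higher and lower are relative to the median gene, depth was lower on polysomes, and genes listed in 1 table alone have no ratio. Reads shared between gene copies and the replicates' unstated origin limit single genes and p-values. Relative to 1722 higher and 1590 lower genes, RPKM as deposited gave 953 and 2911 and moved the median of all genes to -0.51, an adjusted p under 0.01 gave 1009 lower, and a log2 difference of at least 1 gave 1725 in all, 1114 higher and 611 lower. Leaving out 1 library at a time gave 2680 to 3540 genes, 1470 to 1845 higher and 1210 to 1695 lower. The other alternatives stayed within 1.5 times, from 1431 to 1772 higher and 1107 to 1942 lower, and the test between IMZ and IVZ gave 0 genes under every one. Removal of the adenine trend and the list counts without polysomal replicate 3 were added after seeing the data.

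With the replicate number as a block 1693 genes were higher and 1434 lower, and Ccnb1, Bmp15, Zp2 and Tet3 no longer passed. The libraries were not treated as pairs, since no label says that a number marks 1 collection. Deviations of same-numbered libraries of both fractions correlated at -0.144 to 0.064. Of 4 polysomal libraries 1 correlated best with its own number. With 4 libraries in each fraction these values cannot show whether the libraries were paired. The block changed no call of the test between IMZ and IVZ.

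Of 31 gene lists 17 had a median that changed sign under at least 1 alternative. In 7 of them the median of -0.08 to 0.08 lay within 1 SD of 0 (SD between polysomal libraries), and the values with the other sign reached -0.66 to 0.42. These were initiation factors, the maternal complex, cyclin B, replication, the spliceosome, chaperones and sperm transcripts. The other 10 follow. With RPKM as deposited they were -0.05 for elongation factors, -0.38 for other histones and their binding proteins, -0.22 for secreted factors (-0.01 with quantile normalization), -0.31 for CPEB and storage proteins and -0.00 for the proteasome. With the GC trend removed they were 0.14 for mitochondrially encoded messengers, -0.10 for other histones, 0.09 for maturation messengers, 0.04 for zygotic activation factors and 0.04 for the stress response. With the length trend removed they were -0.18 for elongation factors, -0.19 for other histones, -0.03 for the proteasome, 0.02 for the stress response and 0.04 for the nuclear pore. With the adenine trend removed they were 0.44 for mitochondrially encoded messengers and 0.16 for zygotic activation factors. Without polysomal replicate 3 the medians were 0.23 for other histones, 0.11 for CPEB and storage proteins and -0.27 for chaperones.

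Of 149 named genes 10 changed sign. These were mt-Nd1 (0.10), mt-Co2 (0.21), mt-Nd2 (0.66) and Dppa3 (0.63) with the adenine trend removed, mt-Nd2 (0.14) and Ccnb1 (0.16) with the GC trend removed, H2bc1 (-0.12) and Tet3 (0.07) with the length trend removed, Dazl (-0.40), Bmp15 (-0.22) and Zp2 (-0.11) with RPKM as deposited, and Bmp15 (-0.01) with quantile normalization. The cause was not tested.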
